A study of Mus musculus with 8 samples.

Results

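The protein genes of the cytosolic ribosome were followed across RNA-seq libraries from mouse calvarial cells. They were taken by symbol, as large-subunit (Rpl), small-subunit (Rps and Rpsa) and P-stalk (Rplp0, Rplp1, Rplp2) names with their close paralogs, and no measured value was used. The rule found 86 of the 25239 gene symbols, namely 50 of the large subunit, 33 of the small subunit and 3 of the P stalk. Of these, 81 passed the filter on low counts and were tested among 12837 genes. All 33 small-subunit genes and all 3 P-stalk genes passed, as did 45 of the 50 large-subunit genes.

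The ribosome joins amino acids into protein, and each of its subunits is built from ribosomal RNA and a fixed set of proteins that are mostly needed in equal numbers. The messenger RNAs of these proteins begin with a C followed by a run of pyrimidines, the terminal oligopyrimidine or TOP motif, through which mTORC1 and the binding protein LARP1 set how much of them is translated and kept. A few members have a paralog that can take the same place in the ribosome, and some of those paralogs are known for narrow expression, such as Rpl3l in striated muscle and Rpl10l in testis.

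Cells labelled as osteoblasts, the bone-forming cells, came from the calvaria, the roof of the skull. The genotype label KO(OSX-SphK2) marks 4 libraries from mice in which Sphk2, the gene of sphingosine kinase 2, was to be deleted through Osx (osterix, gene Sp7), a factor of the osteoblast lineage, and 4 libraries came from littermates labelled WT. Sphk2 was not lower in each library labelled KO, so those libraries are named by their label: its level was 69.7, 72.3, 72.1 and 131 CPM in KO 1 to 4, against 75.8, 64.2, 82.5 and 134 CPM in control 1 to 4. CPM is the read count scaled to a common library size with the TMM factor. Other cells of such mice keep Sphk2 where the Osx-driven deletion does not act, and the labels used here give no age, sex or number of animals per library.

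Total counts ran from 14347495 to 17928713 in the KO libraries and from 14571389 to 19065421 in the controls. Fixed macrophage markers such as Lyz2 and Csf1r summed to 33989 to 56809 CPM in the KO libraries and 33679 to 44170 CPM in the controls, above the osteoblast and matrix markers at 4730 to 17209 CPM and 7531 to 18525 CPM. Bglap, the osteocalcin gene of mature osteoblasts, stood at 42.3 CPM in KO 1 and at most 0.582 CPM in the other libraries. Erythroid markers summed to at most 0.582 CPM and neutrophil markers to at most 3.64 CPM in any library. Both libraries numbered 4 stood apart, with osteoclast markers summing to 6748 CPM in KO 4 and 10222 CPM in control 4, against 176 to 189 CPM in KO 1 to 3 and 172 to 278 CPM in control 1 to 3. Results are therefore given for all 8 libraries and for numbers 1 to 3. In such bulk samples, fewer cells of a type and less RNA per cell cannot be told apart.

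The start of the gene is where most members hold a run of pyrimidines. This stretch is shown for 5 members of both subunits and for 3 paralogs, as examples that do not stand for all. Each line gives 60 bases before and 30 bases after the RefSeq start, on the strand of the gene in GRCm38.p6, with the longest run of C and T in capitals, or both runs where they are equally long.
Rps6 (chr4:86857338-86857427, minus strand): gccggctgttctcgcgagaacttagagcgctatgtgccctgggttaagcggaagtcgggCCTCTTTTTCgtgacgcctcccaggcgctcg
Rps10 (chr17:27635215-27635304, minus strand): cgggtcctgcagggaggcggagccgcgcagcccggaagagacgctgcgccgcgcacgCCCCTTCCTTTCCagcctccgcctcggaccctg
Rpl15 (chr14:18270957-18271046, minus strand): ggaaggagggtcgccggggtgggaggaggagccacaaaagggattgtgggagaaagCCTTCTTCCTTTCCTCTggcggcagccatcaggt
Rpl38 (chr11:114668520-114668609, plus strand): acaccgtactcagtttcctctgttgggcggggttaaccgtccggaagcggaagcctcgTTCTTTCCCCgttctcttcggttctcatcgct
Rpl4 (chr9:64173327-64173416, plus strand): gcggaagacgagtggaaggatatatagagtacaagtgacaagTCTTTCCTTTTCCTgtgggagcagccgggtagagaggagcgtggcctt
Rpl22l1 (chr3:28805448-28805537, plus strand): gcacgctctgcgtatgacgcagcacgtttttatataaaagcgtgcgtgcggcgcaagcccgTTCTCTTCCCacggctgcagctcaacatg
Rps27l (chr9:66946026-66946115, plus strand): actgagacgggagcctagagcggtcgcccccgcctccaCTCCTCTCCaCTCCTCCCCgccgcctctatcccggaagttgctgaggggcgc
Rpl7l1 (chr17:46782627-46782716, minus strand): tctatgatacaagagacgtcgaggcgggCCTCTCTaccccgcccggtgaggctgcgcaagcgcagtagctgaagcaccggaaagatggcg

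In Rps6, Rps10, Rpl15 and Rpl38 the run lay across the RefSeq start, and in Rpl4 it began 18 bases before it. The runs were 10 bases long in Rps6, 13 in Rps10, 17 in Rpl15, 10 in Rpl38 and 14 in Rpl4. Among the paralogs, Rpl22l1 had 10 such bases just after the start, Rps27l had 2 runs of 9 that began 22 and 12 bases before it, and Rpl7l1 had no more than 7.

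RefSeq start windows matched 65 of the 86 members by symbol. A run of at least 8 pyrimidines within 50 bases on either side of the start, read on the strand of the gene, was held by 54 of these 65 members (83.1%), against 39.3% of the 27025 genes in the table and 37.4% of the 10207 tested genes with a window. Within that span the longest run was 7 bases in Rplp0, Rpsa and Rps4x, while the paralogs Rpl36al and Rpl39l held 10 and 9. CGGAAG on either strand, the core letters of ETS-family sites, was in 66.2% of member windows of 300 bases, against 18.8% of all and 34.9% of tested genes. AAGATGGC on either strand, the letters of YY1 sites, was in 9.2% of member windows, against 3.2% of all and 5.3% of tested genes. TATAAA on the strand of the gene was in 10.8% of member windows, against 9.8% of all and 5.4% of tested genes. GGGCGG on either strand, the core of SP1 sites, was in 61.5% of member windows, against 38.2% of all and 68.4% of tested genes. These matches describe letters and say nothing of binding.

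Per length, the members were among the most abundant messengers of these cells. CPM per kb of the annotated transcript over all 8 libraries had a median of 342 over the 81 tested members, against 9.27 over the 12663 tested genes with a length. Rpl10, a large-subunit protein added late in assembly, was the highest at 1010.4 CPM per kb, before the stalk genes Rplp0 at 943 and Rplp1 at 928. At the low end stood the barely counted Rpl34 at 1.96 and Rps27 at 3.94 CPM per kb, followed by the paralogs Rpl39l at 7.37, Rps4l at 9.91, Rpl7l1 at 31.4 and Rpl22l1 at 31.9 CPM per kb.

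Not every member was counted in proportion to what such genes usually give. Rpl26 had 0 counts in each of the 8 libraries, and Rpl30 had at most 6, although both encode core proteins of the large subunit. Rpl34 had 13 to 39 counts, and Rps27 14 to 38. For Rps27, 98.4% of the 100-base stretches of its transcript also occur in other genes, while the share was 31.0% for Rpl26, 19.4% for Rpl30 and 22.5% for Rpl34. The sources used here do not give how reads with several alignments were counted, so levels of members with copies are uncertain. Some such stretch occurred elsewhere for 77 of the 86 members, and the median share was 31.1%. The striated-muscle paralog Rpl3l had at most 1 count, and the testis paralog Rpl10l had 0 counts in every library. Rpl32l, annotated as a processed pseudogene, had 0 to 4 counts.

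No label pairs the libraries, and pairs by number are uncertain. The messenger RNA of the ribosomal proteins was lower in the KO libraries than in the control of the same number in each of these 4 pairs. Summed over all members, it was 21089, 20967, 21395 and 33537 CPM in KO 1 to 4, against 30730, 30352, 32033 and 39975 CPM in control 1 to 4. KO 1 to 3 lay together below every control, whereas KO 4 lay above control 1 to 3 and below control 4. The KO mean was 24247 ± 6196 CPM and the control mean 33272 ± 4526 CPM (SD, n = 4 each), a ratio of 0.729. The ratios within pairs were 0.686, 0.691, 0.668 and 0.839 for numbers 1 to 4. As a share of all counts, members took 2.17%, 2.15%, 2.21% and 3.21% in KO 1 to 4, against 3.05%, 3.01%, 3.16% and 3.92% in control 1 to 4.

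Both subunits and the P stalk had lower sums in the KO libraries, by similar ratios. Large-subunit genes summed to 12816 ± 3109 CPM in the KO libraries and 17657 ± 2355 CPM in the controls, a ratio of 0.726. Small-subunit genes summed to 9788 ± 2659 CPM in the KO libraries and 13328 ± 1939 CPM in the controls, a ratio of 0.734. The P stalk, the flexible arm of the large subunit that binds elongation factors, summed to 1642 ± 428 CPM in the KO libraries and 2289 ± 236 CPM in the controls, a ratio of 0.718 (SD, n = 4 each). The SDs are set mainly by number 4, since over numbers 1 to 3 all members summed to 21150 ± 220 CPM in the KO libraries and 31038 ± 882 CPM in the controls (SD, n = 3 each), a ratio of 0.681.

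**Figure D1:**
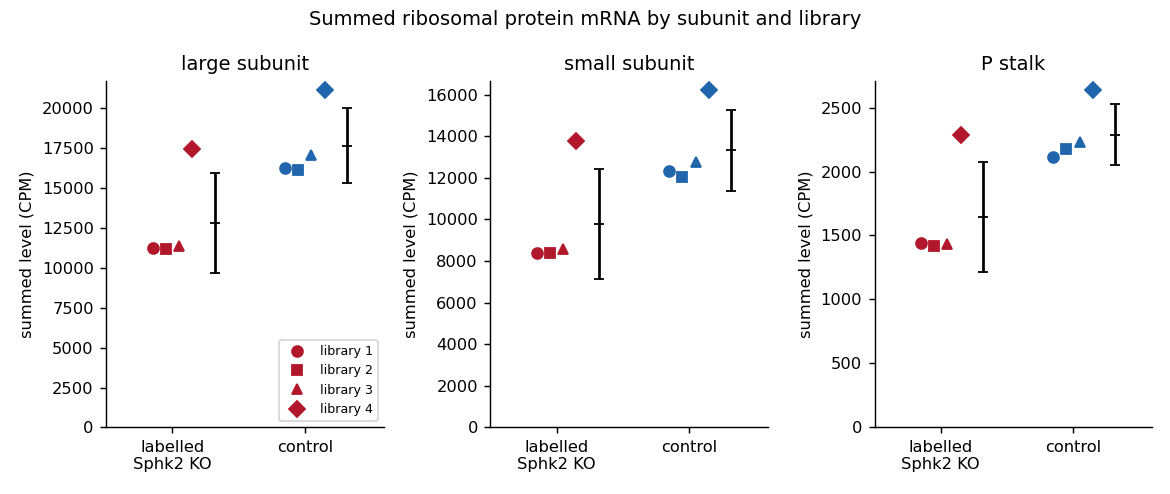
Summed CPM of large-subunit, small-subunit and P-stalk genes on the vertical axes, by library, with KO-labelled libraries in red on the left and controls in blue on the right and the bar beside each group as mean and SD (n = 4). KO 1 to 3 lie close together below all controls in each panel, and both libraries numbered 4 are the highest of their group.

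Gene by gene, 80 of the 81 tested members had a negative log2 fold change of KO over control in edgeR's quasi-likelihood fit of genotype alone, where 53.3% of all 12837 genes did. Their median was −0.45, which is 0.731-fold, against −0.02 over all tested genes, and they ran from −0.63 to 0.08. No member passed an adjusted p of 0.05 in this fit, nor did any gene (0.0% of tested genes in either direction), and the lowest adjusted p of a member was 0.471. At an unadjusted p under 0.05, 35 members were lower, where 1.72% of all tested genes were lower and 631 genes passed in either direction.

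With the library number as a block, 50 of the 81 members were lower and 0 were higher (edgeR quasi-likelihood, adjusted p 0.0361 to 0.0489), where 1.18% of all tested genes were lower and 1.31% higher. The called members were at 0.64 to 0.761-fold. No label states the pairing behind this block, so it is uncertain. The count was 0 when number 1, 2 or 3 was left out of the block fit, for which counts over all genes are not given here. It was 73 when number 4 was left out of the block fit, where 11.9% of all genes were lower and 12.3% higher. DESeq2 without a block called 9 members lower and 0 higher, where 0.374% of all genes were lower and 0.958% higher. Rpl4, Rpl10, Rpl12, Rpl23a, Rpl32, Rplp0 and Rps7 were among the 9. Over numbers 1 to 3 alone and without a block, edgeR called 73 members lower and 0 higher, where 6.29% of all genes were lower and 7.78% higher. All 50 members called with the block were among these 73.

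For 13 of the 81 members, each KO library was below each control library, which held for 1.27% of all tested genes. They included Rpl3, Rpl4, Rpl10, Rpl10a, Rpl12, Rpl19, Rpl23a, Rpl32, Rplp0, Rps7 and Rps23. Over numbers 1 to 3, this held for 74 of the 81 members, against 16.5% of all genes.

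**Figure D2:**
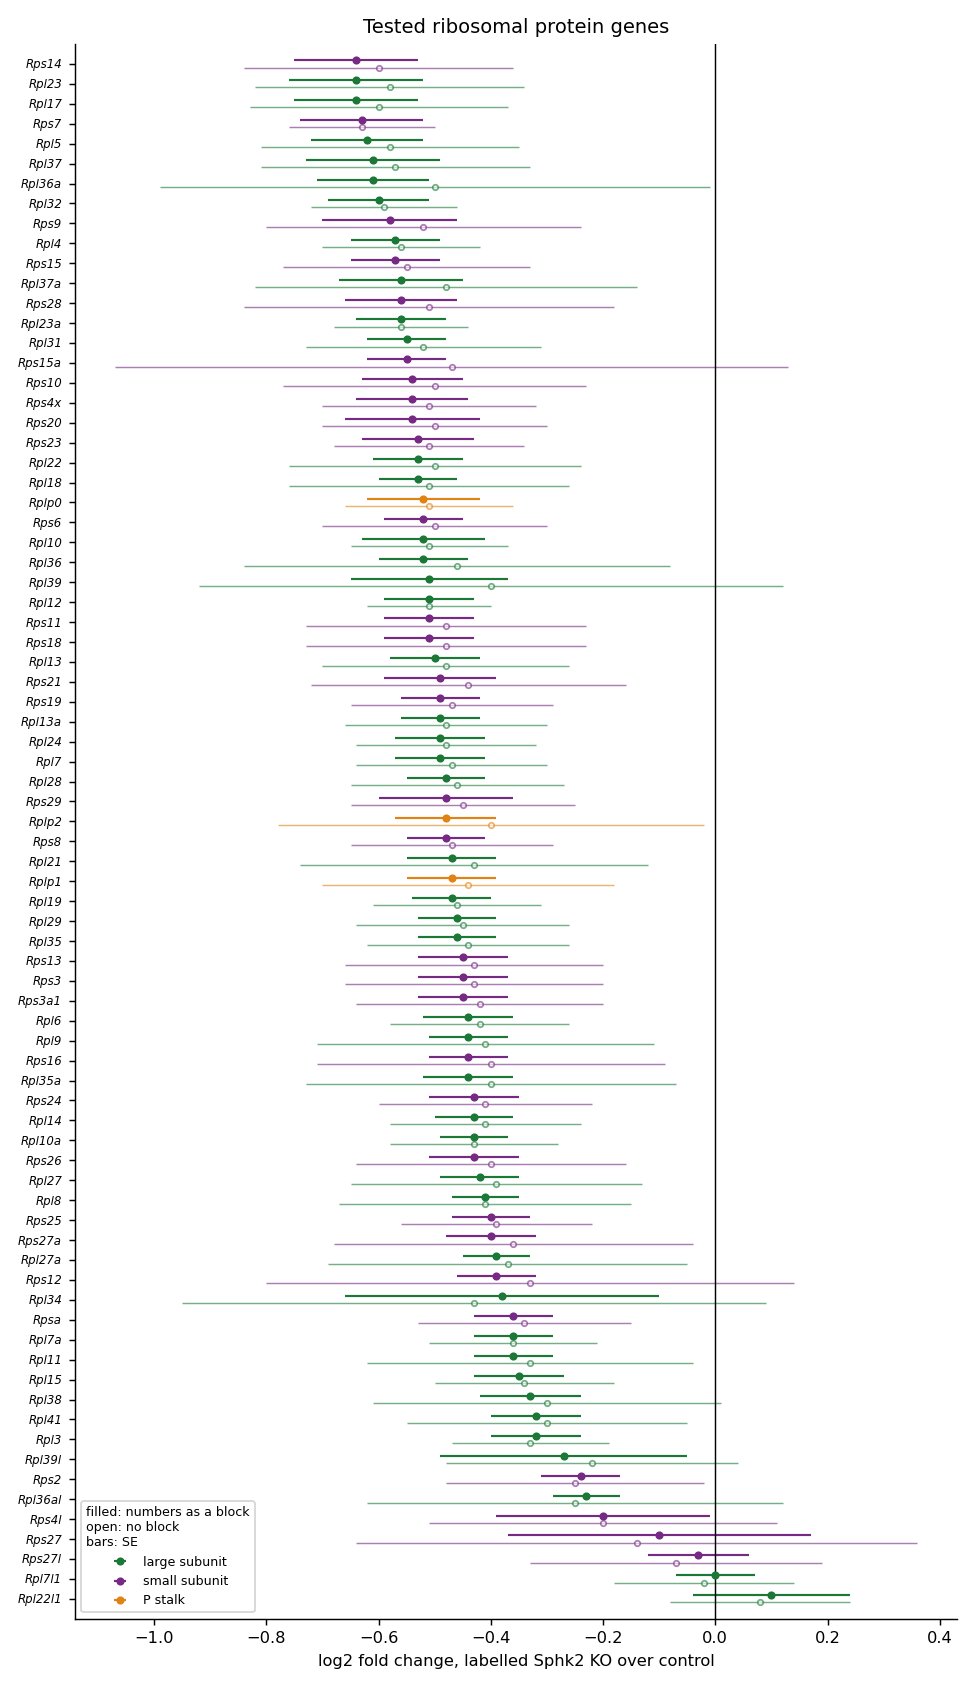
Log2 fold change of KO-labelled over control libraries for 78 of the 81 tested members, ordered by the block fit, with filled points for the fit with library numbers as a block, open points for the fit without, bars for SE, and colours for the large subunit, small subunit and P stalk. Nearly all members lie left of 0, the 3 groups are mixed along the axis, and Rps27l, Rpl7l1 and Rpl22l1 sit near 0.

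Among large-subunit genes, 29 of 45 were lower with the block (1.18% of all tested genes) and 40 of 45 over numbers 1 to 3 (6.29%). Their median log2 fold change without a block was −0.45. Rpl12, Rpl23a, Rpl32 and Rpl4 were among the 5 with the smallest unadjusted p. Rpl12, which sits at the base of the P stalk, had 333, 348, 339 and 386 CPM in KO 1 to 4, against 497, 491, 542 and 467 CPM in control 1 to 4. Its log2 fold change was −0.51 (SE 0.11), with an adjusted p of 0.471 without the block and 0.0412 with it (edgeR). Rpl23a, a protein at the exit of the nascent chain tunnel, had 337, 331, 335 and 423 CPM in KO 1 to 4, against 502, 533, 532 and 529 CPM in control 1 to 4. The groups did not overlap for either gene, and KO 4 was the KO library nearest the controls in both.

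Rpl32 had 254, 238, 252 and 332 CPM in KO 1 to 4, against 409, 392, 413 and 406 CPM in control 1 to 4. Rpl4, whose long extension reaches through the subunit to the tunnel, had 736, 746, 721 and 974 CPM in KO 1 to 4, against 1139, 1146, 1176 and 1226 CPM in control 1 to 4. The groups were apart in both genes, and with the block the adjusted p was 0.0397 for Rpl32 and 0.0386 for Rpl4 (edgeR). For Rpl4 only 5.1% of 100-base stretches occur in another gene.

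Rpl5 and Rpl11 join ribosomal RNA in a particle that, when free of the ribosome, binds the p53 regulator MDM2. Rpl5 had 311, 308, 301 and 557 CPM in KO 1 to 4, against 516, 499, 525 and 663 CPM in control 1 to 4, and it was lower with the block (log2 fold change −0.62, SE 0.10, adjusted p 0.0427, edgeR). Rpl11 had 219, 214, 225 and 427 CPM in KO 1 to 4, against 294, 278, 314 and 474 CPM in control 1 to 4. Its log2 fold change with the block was −0.36 (SE 0.07) with an adjusted p of 0.0601 (edgeR), and it was lower over numbers 1 to 3 alone, with an adjusted p of 0.00316. Rpl38, known in mouse for its part in translating Hox messengers, had 55.6, 53.5, 56.0 and 115 CPM in KO 1 to 4, against 65.5, 83.5, 71.6 and 123 CPM in control 1 to 4. KO 4 lay among the controls for these 3 genes, and KO 1 to 3 lay below all controls.

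Rpl10 had 673, 649, 667 and 864 CPM in KO 1 to 4, against 1064, 978, 1060 and 955 CPM in control 1 to 4. The groups did not overlap, yet its adjusted p was 0.0597 with the block (edgeR). Rpl3, a core protein near the site of peptide bond formation, had one of the smaller differences among abundant members, with 523, 547, 525 and 580.1 CPM in KO 1 to 4, against 616, 646, 640.1 and 841 CPM in control 1 to 4. Its log2 fold change was −0.33 (SE 0.14) without the block, with an adjusted p of 0.98 (edgeR).

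Among small-subunit genes, 20 of 33 were lower with the block (1.18% of all tested genes) and 30 of 33 over numbers 1 to 3 (6.29%). Their median log2 fold change without a block was −0.46. Rps7, Rps23 and Rps4x were among the 5 with the smallest unadjusted p. Rps7 (chr12:28630854-28635953, minus strand, GRCm38), another ribosomal protein that binds MDM2, had 339.8, 349.8, 343 and 400.2 CPM in KO 1 to 4, against 596, 531, 612 and 477 CPM in control 1 to 4. No KO library reached a control, and control 4 was the lowest control. Its log2 fold change was −0.63 (SE 0.13) without the block (adjusted p 0.471) and −0.63 (SE 0.11) with it (adjusted p 0.0458, edgeR).

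Rps23, a protein of the decoding centre, had 266, 256, 276 and 400.1 CPM in KO 1 to 4, against 414, 429.8, 410.2 and 449 CPM in control 1 to 4. Its groups did not overlap, and its adjusted p with the block was 0.0546 (edgeR). Rps4x, encoded on the X chromosome, had 514, 499, 494 and 814 CPM in KO 1 to 4, against 806, 767, 809.9 and 923 CPM in control 1 to 4, with an adjusted p of 0.0521 with the block (edgeR). Here KO 4 lay above control 1, 2 and 3.

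Rps19, the first gene found mutated in Diamond-Blackfan anaemia, had 157, 152, 165 and 240.1 CPM in KO 1 to 4, against 242, 215, 244 and 289 CPM in control 1 to 4 (adjusted p 0.0406 with the block, edgeR). Rps6, the S6 kinase substrate of mTORC1 signalling whose start is printed above, had 335, 334, 349 and 541 CPM in KO 1 to 4, against 502, 503, 519 and 677 CPM in control 1 to 4 (adjusted p 0.0385 with the block, edgeR). Rps27a, made as a fusion with ubiquitin, had 220.4, 209, 226 and 457 CPM in KO 1 to 4, against 324, 282, 304 and 518 CPM in control 1 to 4 (adjusted p 0.0533 with the block, edgeR). In all 3, KO 4 exceeded at least 1 control. Rpsa, once described as a laminin receptor, had 719, 749, 717 and 1078 CPM in KO 1 to 4, against 931, 939, 1016 and 1259 CPM in control 1 to 4, and an adjusted p of 0.0604 with the block (edgeR).

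In the P stalk, the scaffold protein gene Rplp0 had 969, 961, 962 and 1342 CPM in KO 1 to 4, against 1437, 1481, 1549 and 1546 CPM in control 1 to 4. Rplp1 had 330.0, 318, 328 and 596 CPM in KO 1 to 4, against 468, 492, 466 and 705 CPM in control 1 to 4. Rplp2 had 139, 137, 140.3 and 347 CPM in KO 1 to 4, against 210.1, 202, 213 and 384 CPM in control 1 to 4. Only Rplp0 had groups without overlap. With the block Rplp1 was lower (adjusted p 0.0437), while Rplp0 (0.0515) and Rplp2 (0.0531) did not pass (edgeR).

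Within pairs of equal number, the member medians of KO minus control were −0.54, −0.55, −0.57 and −0.25 in log2 CPM for numbers 1 to 4. The difference was negative for 77, 76, 79 and 80 of the 81 members in these pairs, while the median over all tested genes stayed between −0.01 and 0.01. Of the 12837 tested genes, 6456, 6487, 6653 and 6113 were negative in pairs 1 to 4. The fourth pair had a smaller median and almost as many negative members.

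**Figure D3:**
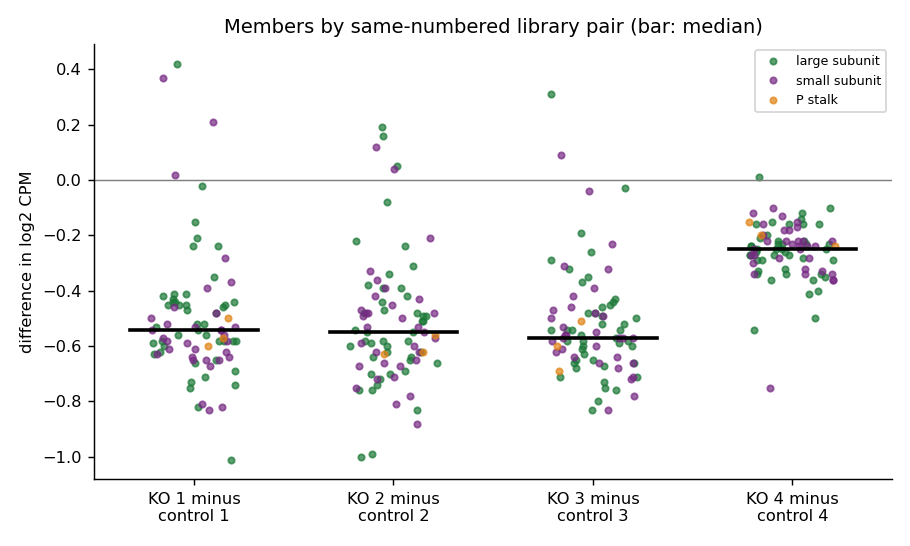
Difference in log2 CPM, KO minus the control of the same number, for each of the 81 tested members in pairs 1 to 4, coloured by subunit, with the median as a bar. Medians are −0.54, −0.55 and −0.57 in pairs 1 to 3 and −0.25 in pair 4, where 80 members lie below 0.

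Library number 4 carried more ribosomal protein messenger in both groups. The ratio of number 4 to the mean of numbers 1 to 3 had a median of 1.68 over members in the KO libraries and 1.33 in the controls, against 0.992 and 1.01 over all tested genes. It was above 1 for 78 members in the KO libraries and for 74 in the controls, against 49.6% and 50.8% of all tested genes. Rps15a showed the highest ratio in both groups, 3.75 in the KO libraries and 3.1 in the controls, with 124, 125, 126 and 471 CPM in KO 1 to 4, against 195, 186, 198 and 597 CPM in control 1 to 4. Rps2 went the other way, at 747, 813, 803 and 507 CPM in KO 1 to 4, against 905, 938, 1003 and 567 CPM in control 1 to 4. Members thus differed in how number 4 compared with the others, although KO was below the same-numbered control for both genes in every pair. Without control 4 the log2 fold change of Rps15a was 0.13, against −0.47 with all libraries.

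The 8 tested members not called over numbers 1 to 3 were the 6 paralogs and the barely counted Rpl34 and Rps27, each under 40 counts in every library. The 73 others, a set that this call therefore fixes, had log2 fold changes without the block from −0.63 to −0.25 with a median of −0.46, and adjusted p-values of 0.00019 to 0.0381 over numbers 1 to 3 (edgeR). With the block 50 of them were lower, and the 23 not called included Rpl3, Rpl10, Rpl11, Rpl38, Rplp0, Rplp2, Rps2, Rps12, Rps23, Rps27a, Rps4x and Rpsa. Across the 73 members the log2 fold change without the block had a Pearson r of −0.07 with transcript length, 0.17 with GC percent, 0.15 with the share of stretches found in other genes and −0.08 with mean log2 CPM. The largest r was 0.26 (Spearman rho 0.4), with the ratio of number 4 to the mean of numbers 1 to 3 in the controls. For the fold change with the block, r with that ratio was 0.04 (rho 0.2), and the largest r was 0.21, with GC percent. The control libraries enter both that ratio and the fold change. These correlations run across genes of the same 8 libraries and are given as descriptions.

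Members with few and with many copied stretches were compared as well. The 11 tested non-paralog members with under 10% of 100-base stretches shared had a median log2 fold change of −0.48, 11 of 11 negative. For the 25 members with over 50% shared the median was −0.46, 25 of 25 negative. With the block 8 of the 11 and 16 of the 25 were lower, against 1.18% of all tested genes (edgeR). Over numbers 1 to 3 without a block, 11 of 11 and 24 of 25 were, against 6.29%, with medians of −0.62 and −0.52. Counting the paralogs too, 15 tested members had under 10% shared, with a median of −0.44, and 8 of 15 were lower with the block and 11 of 15 over numbers 1 to 3.

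The paralogs were among the members with the smallest differences between the groups. None of the 6 tested paralogs passed in any edgeR fit, and their median log2 fold change was −0.13 without the block and −0.11 with it. Rpl7l1 (chr17:46773907-46782672, minus strand, GRCm38), a relative of Rpl7 that is also linked to ribosome assembly, had 75.2, 79.4, 76.1 and 94.8 CPM in KO 1 to 4, against 76.3, 69.4, 77.6 and 106 CPM in control 1 to 4. Its log2 fold change with the block was 0.00 (SE 0.07, 95% interval −0.17 to 0.16). Its parent Rpl7 had 429.5, 431, 426 and 629.9 CPM in KO 1 to 4, against 634, 616, 641 and 767 CPM in control 1 to 4, and was lower with the block (adjusted p 0.0412, edgeR).

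Rps27l, a p53 target in mouse and human cells, had 38.6, 39.6, 40.4 and 57.0 CPM in KO 1 to 4, against 38.1, 36.5, 37.9 and 71.6 CPM in control 1 to 4, a log2 fold change of −0.03 (SE 0.09, 95% interval −0.24 to 0.19) with the block. Rpl22l1, which in mouse is raised when Rpl22 is missing, had 18.5, 17.3, 19.1 and 17.4 CPM in KO 1 to 4, against 13.8, 18.4, 15.3 and 20.9 CPM in control 1 to 4. With the block its log2 fold change was 0.10 (SE 0.14, 95% interval −0.23 to 0.42). Its parent Rpl22 had 92.5, 84.7, 90.6 and 168 CPM in KO 1 to 4, against 138, 132, 142 and 203 CPM in control 1 to 4, and was lower with the block (adjusted p 0.0386, edgeR). For all 3 paralogs the groups overlapped and the intervals covered 0.

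Rpl36al had 46.9, 45.6, 45.5 and 93.1 CPM in KO 1 to 4, against 52.0, 53.1, 51.8 and 119 CPM in control 1 to 4. Its log2 fold change with the block was −0.23 (SE 0.06, adjusted p 0.0933, edgeR), and each KO library was below the control of its number. Its parent on the X chromosome, Rpl36a, had 68.2, 66.6, 70.1 and 221 CPM in KO 1 to 4, against 114, 113, 116 and 259.6 CPM in control 1 to 4. Rpl39l, known from male germ cells, ran from 3.16 to 7.06 CPM in the KO libraries and from 6.22 to 6.52 CPM in the controls. Rps4l, annotated as a transcribed processed pseudogene, ran from 5.1 to 11.2 CPM in the KO libraries and from 6.51 to 13.2 CPM in the controls. Both are low and their groups overlapped.

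A ratio of paralog to parent counts within a library does not depend on the library size. It was compared for 6 pairs by an exact two-sided permutation test, in which 4 libraries against 4 can reach a p of 0.0286 at the least. Rpl7l1 had 17.5, 18.4, 17.9 and 15 reads per 100 Rpl7 reads in KO 1 to 4, against 12.0, 11.3, 12.1 and 13.8 in control 1 to 4. Each KO library was above each control, with log2 ratios of −2.54 ± 0.13 in the KO libraries and −3.03 ± 0.12 in the controls (SD, n = 4 each) and a difference of 0.48. This gave an exact permutation p of 0.0286, the least the design allows, and 0.171 after Benjamini-Hochberg adjustment over the 6 ratios, so it did not pass.

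Rpl22l1 had 20.1, 20.5, 21.1 and 10.4 reads per 100 Rpl22 reads in KO 1 to 4, against 10, 14, 10.8 and 10.3 in control 1 to 4 (exact permutation p = 0.0857, adjusted p = 0.257). Rpl36al had 68.8, 68.4, 64.9 and 42.1 reads per 100 Rpl36a reads in KO 1 to 4, against 45.7, 46.9, 44.6 and 45.7 in control 1 to 4 (exact permutation p = 0.143, adjusted p = 0.286). In both pairs KO 1 to 3 lay above every control, and KO 4 lay among or below the controls. The ratios Rpl39l/Rpl39, Rps4l/Rps4x and Rps27l/Rps27 had differences of 0.23, 0.34 and 0.06 with exact permutation p-values of 0.743, 0.514 and 0.771, and Rps27 was barely counted.

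**Figure D4:**
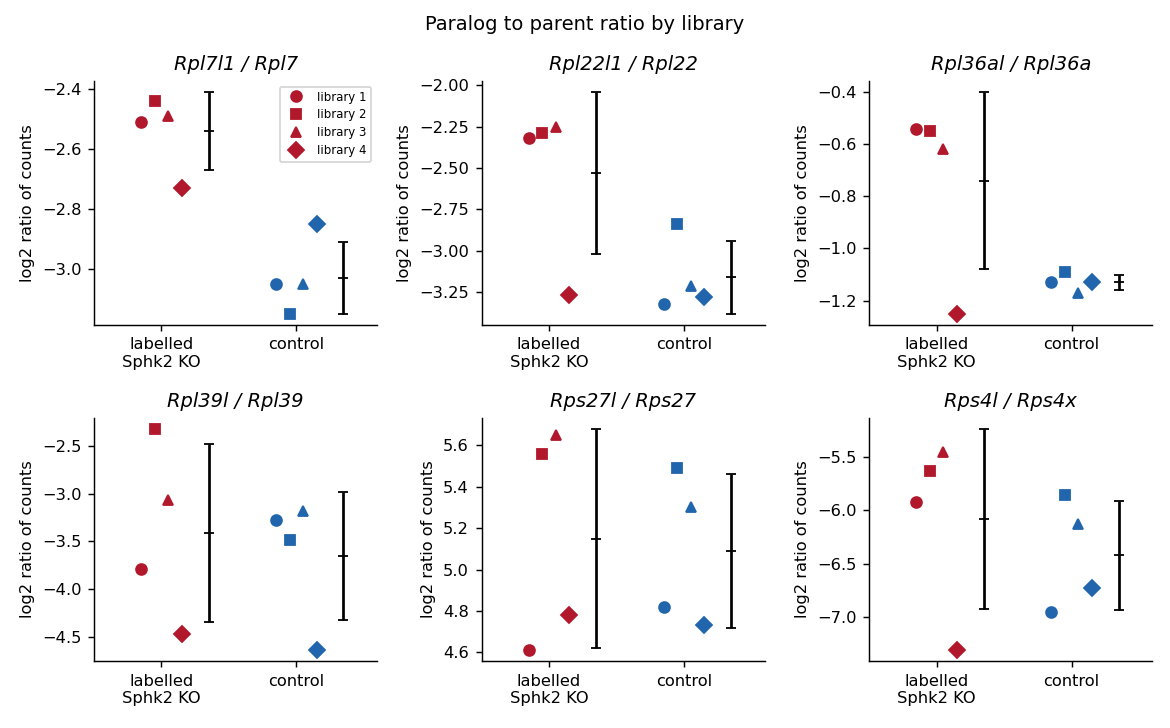
Log2 ratio of paralog to parent read counts by library for 6 pairs, with KO-labelled libraries in red on the left, controls in blue on the right, a symbol for each library number and bars for mean and SD (n = 4). The groups are apart for Rpl7l1/Rpl7 alone, and for Rpl22l1/Rpl22 and Rpl36al/Rpl36a KO 1 to 3 are above the controls while KO 4 is not.

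Beside the members, the translation genes with the most negative medians were those of the TOP class. Fau, which encodes a small-subunit protein fused to a ubiquitin-like protein, had 222, 201, 223 and 466 CPM in KO 1 to 4, against 338, 317, 352 and 538 CPM in control 1 to 4 (adjusted p 0.0458 with the block, edgeR). Rack1, the scaffold on the small subunit, had 516, 555, 542 and 794 CPM in KO 1 to 4, against 779, 774, 824 and 937 CPM in control 1 to 4 (adjusted p 0.046 with the block, edgeR). The 25 elongation factors and other known TOP messengers had a median of −0.31 with 25 of 25 negative. Against 1.18% of all tested genes, 6 of the 25 were lower with the block, namely Eef1b2, Eif3h, Naca, Pabpc1, Pabpc4 and Tpt1.

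Tpt1, a highly abundant TOP messenger, had 989.6, 960.1, 947 and 1159.8 CPM in KO 1 to 4, against 1540, 1547, 1587 and 1460.3 CPM in control 1 to 4 (adjusted p 0.0397 with the block, edgeR). Eef2, the translocation factor, had 2423, 2538, 2487 and 2701 CPM in KO 1 to 4, against 3761, 3699, 4028 and 3132 CPM in control 1 to 4, an adjusted p of 0.0565 with the block (edgeR). No KO library reached a control in either gene.

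Without the block, translation lists outside that class had medians between −0.08 and −0.02, against −0.02 for all genes. Most of their members were negative. The share was above the 53.3% of all genes in each list except the mTORC1 and TOP regulation list, with 9 of 17. The list of 29 translation initiation genes, which includes the repressors of initiation Eif4ebp1 and Eif4ebp2, had a median log2 fold change of −0.04 with 21 negative. With the block 1 of these was lower, the repressor gene Eif4ebp1 and not an initiation factor, where 1.18% of all tested genes were lower. The 60 ribosome biogenesis factors had −0.08 with 53 of 60 negative and the 15 RNA polymerase I genes −0.06 with 13 of 15 negative, and 0 were called in either direction with the block. The 78 mitochondrial ribosomal proteins had −0.08 with 64 of 78 negative, and also 0 called with the block. Of these 78, 50 were negative with the block. Over numbers 1 to 3 without a block, 34 of 78 were negative with a median of 0.03. In that fit the ribosome biogenesis factors had −0.04 with 39 of 60 negative, and the RNA polymerase I genes −0.08 with 13 of 15 negative. Of the 17 genes of the mTORC1 pathway and TOP regulation, with a median of −0.02 and 9 negative, 1 was lower with the block: Myc, a transcription factor of ribosome production. It had 37.6, 41.7, 40 and 28.3 CPM in KO 1 to 4, against 53.0, 63.8, 63.9 and 49.4 CPM in control 1 to 4 (log2 fold change −0.65, SE 0.07, adjusted p 0.0328 with the block, edgeR).

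**Figure D5:**
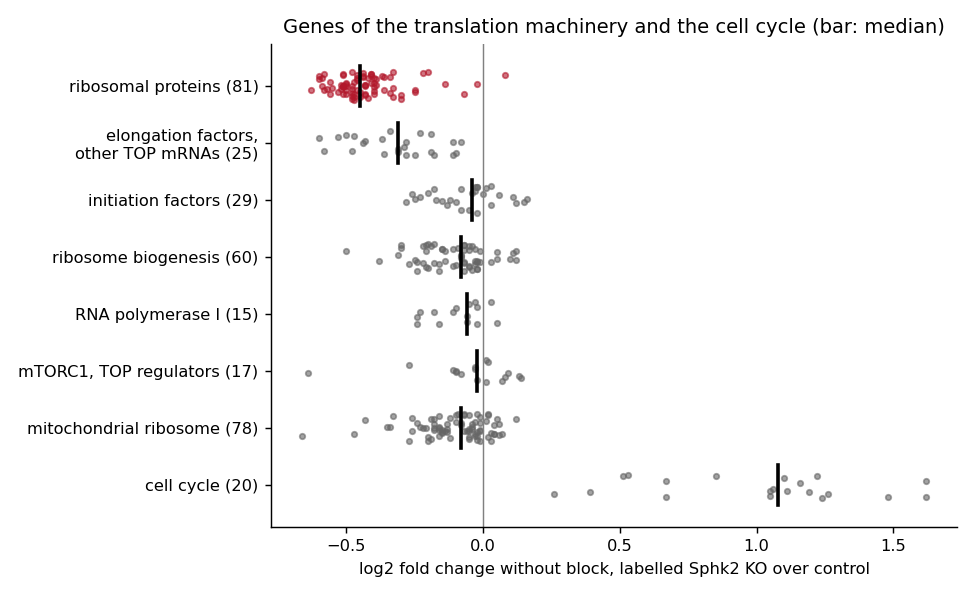
Log2 fold change of KO-labelled over control libraries without the block for the tested genes of each list, the number of genes in brackets and the median as a bar. Ribosomal proteins have a median of −0.45 and elongation and other TOP genes of −0.31, the other translation lists lie between −0.08 and −0.02, and cell cycle genes have 1.08.

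Genes of the cell cycle moved in the opposite direction in the same libraries. Their summed level was 1633, 1839, 1718 and 1200 CPM in KO 1 to 4, against 576, 899, 705 and 908 CPM in control 1 to 4. Of 20 tested genes, 20 were positive with a median log2 fold change of 1.08. With the block 6 were higher, against 1.31% of all tested genes (edgeR). In the fourth pair, where the member difference was smallest, the cell cycle median within the pair was 0.49, against 1.67, 0.99 and 1.31 in pairs 1 to 3. Of the macrophage markers, 16 were tested with a median of 0.07, and of the osteoblast and matrix markers 12 with a median of 0.14. With the block these medians were 0.01 and 0.04. Over numbers 1 to 3 without a block, the macrophage median was −0.06 with 9 of 16 negative. The osteoblast and matrix median was 0.62 there, with 9 of 13 tested genes positive. The 7 tested osteoclast markers, high in both libraries numbered 4, were all negative without the block with a median of −0.67, and had a median of −0.26 with 5 negative in the block fit and 0.01 with 3 negative over numbers 1 to 3. The part of cell cycle genes, cell type markers or the library number in the lower ribosomal protein levels was not tested.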

How the data were processed

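Polyadenylated RNA was sequenced in 8 libraries, 4 per genotype, prepared with a plant RNA column kit and a dual-mode mRNA kit, per the labels' protocols. The authors deposited whole-number read counts per gene symbol. STAR 2.7.11b and featureCounts 2 with GRCm38 were used, per the submitters' processing notes. The gene annotation, the use of strand and the treatment of reads with several alignments are not given there. Each library was kept as its own sample, since pairs within a group differed beyond sampling noise (chi-square per degree of freedom 8.56 to 307). The labels do not name separate animals, so p-values cover the variation among libraries only, part of which may be technical.

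Here, edgeR 4.0.16 in R 4.3.3 was used: filterByExpr, TMM scaling, the robust quasi-likelihood test of genotype, and Benjamini-Hochberg adjustment over all tested genes with a threshold of 0.05. DESeq2 1.42.0 and limma 3.58.1 were alternatives, besides other scalings, no filter, and libraries left out. The code was tested on simulated counts. Log2 CPM used a prior count of 2, and ratios used a pseudocount of 0.5. Coordinates, transcript lengths and 100-base stretches came from GENCODE mouse release M21 on GRCm38, which held all 86 members, and start windows came from RefSeq on GRCm38.p6.

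Libraries of equal number deviated together from their group means over all genes (r 0.46 to 0.829 with all libraries, where unlike numbers among 1 to 3 also gave 0.416 to 0.572, and 0.161 to 0.376 among numbers 1 to 3 alone, where unlike numbers gave −0.255 to −0.0234). KO 1 correlated more with control 2 (0.511) than with control 1 (0.46) when all libraries entered. All same-number values were above 0.1, but with all libraries so were those of unlike numbers among 1 to 3, so this bar does not tell pairs apart there. Among numbers 1 to 3 alone, deviations from a group mean sum to 0, so positive same-number values bring negative unlike ones. The pairing used for the block rests on these correlations and is uncertain, as no label states it.

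Named genes were, per subunit, the 5 with the smallest unadjusted p and the 4 nearest 0, the stalk genes, Rpsa, paralogs with their parents, members with well known roles, the 3 most abundant, and up to 3 per other list. Some genes that this rule takes are not reported here. Rps15a, Rps12, the genes printed only in lists of calls, and the grouping by shared stretches were chosen after values were seen. Members and lists were chosen with earlier results of these data known.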

Additional observations from a re-analysis of the deposited data

Results flagged for a closer look

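Within the 4 KO libraries, KO 4 stood apart as the highest in summed ribosomal protein level. The gap to its nearest neighbour took 0.966 of the group's range over all members, 0.967 for the large subunit, 0.962 for the small subunit and 0.975 for the P stalk, each beyond the critical value of Dixon's test for 4 samples. KO 4 was the lowest in the ratio Rpl22l1/Rpl22, with a gap of 0.933 of the range, and in Rpl36al/Rpl36a, with 0.882. Gene by gene, 70 of the 81 tested members had a KO library beyond the critical value, KO 4 as the highest in all 70, and 32 of 81 had such a control library, control 4 as the highest in 31. Chance gives about 1 such group in 20, and the members share their libraries, so these counts are not independent. The share of all tested genes with such a library is not given here, so the counts cannot be read as particular to members. Across genes, chi-square per degree of freedom was 224 to 250.5 between KO 4 and the other KO libraries. It was 243 to 307 between control 4 and the other controls, and 8.56 to 44.7 within groups among numbers 1 to 3. KO 4 and control 4 also held the osteoclast markers, at 6748 and 10222 CPM, and the part of osteoclast genes in these values was not tested.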

How the results depend on the processing

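The median log2 fold change of the tested members was negative in all settings run, and the median of all genes stayed within 0.03 of 0. Without a block, edgeR and limma-voom called 0 members in the settings that kept at least 1 library numbered 4. The number of all genes higher and lower was 168 and 151 with the replicate block, 123 and 48 with DESeq2, 1005 and 812 without number 4, and 1593 and 1539 without number 4 with the block. Lower members numbered 50, 9, 73 and 73 in these 4 settings. The block fits without number 1, 2 or 3 called 0 members. Leaving out 1 library gave 0 to 25 genes higher, 0 to 13 lower, 0 to 0 members lower, and a member median of −0.67 (without KO 4) to −0.33 (without control 4, with 9 positive members).

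Without control 4, 9 members were positive, among them the abundant Rps15a at 0.13 and Rps12 at 0.09, and the barely counted Rpl34 at 0.09. Leaving out 1 library, the ratio Rpl39l/Rpl39 ran from −0.13 to 0.59 and Rps27l/Rps27 from −0.10 to 0.24, and log2 fold changes ran from −0.01 to 0.19 for Rpl22l1, −0.58 to 0.14 for Rpl36al, −1.06 to 0.03 for Rpl39, −0.10 to 0.12 for Rpl7l1, −0.43 to 0.33 for Rps27 and −0.22 to 0.22 for Rps27l. Without number 4, with or without the block, Rpl7l1 was at 0.05, Rps27 at 0.03 and Rps27l at 0.08. Rpl7l1 was at 0.01 with library totals only and at 0.00 in the block fits without number 1 or 3, and Rpl22l1 was at −0.01 in the block fit without number 1. The cause was not tested. Of the paralog ratios, the exact tests in the replicate block or with 1 library left out cannot pass the threshold (smallest p 0.0571 for 4 against 3). Counts under 40 limit Rpl34 and Rps27, and Rpl26 and Rpl30 gave too few counts to test.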

Other observations

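The 30 members that hold small nucleolar RNA genes in GENCODE carry 58 of them, and 14 of the 86 members lie on chromosome 7 and 4 on the X chromosome. The pseudogene Rps18-ps4 had 214 counts (15 CPM) in control 4, against 0 to 5 counts in the other 7 libraries.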
